A study of Mus musculus with 21 samples.

Results

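A set of 10 genes was followed that are used to recognise macrophages newly derived from monocytes and lipid-associated macrophages: Trem2, Gpnmb, Cd9, Cd68, Lgals3, Cd52, Ly6c2, Lyz2, Ms4a7 and Itgax. They were taken by gene symbol from the platform annotation of an expression table with 25428 rows, 1 row per gene, and 9 of the 10 had a row; Lyz2 was not analysed here. The livers came from mice fed the standard diet, in which the driver C57BL/6N-Tg(Clec4g-icre)1.1Sgoe, whose promoter is active in liver sinusoidal endothelial cells (LSECs), was combined with the floxed allele of STOCK Gata4tm1.1Sad/J mice (Gata4-LSEC-KO). There were 10 Gata4-LSEC-KO livers, compared with 11 livers of sibling controls labelled wt on the same diet. Whether the controls carried the driver or the floxed allele is not stated in the labels, nor are the sex and age of the mice. Total RNA of whole liver lysates was hybridised to Affymetrix arrays, 1 array per mouse, and each value below is a log2 RMA expression value. The sample numbers in the descriptions form 2 runs of consecutive numbers, the first with 4 knockout and 5 control livers and the second with 6 knockout and 6 control livers; the labels do not call these batches. All of these livers were whole tissue, so a gene value can differ because a cell type is more or less frequent or because each cell holds more or less RNA, and these cannot be told apart.

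Liver holds resident macrophages, the Kupffer cells, which line the sinusoids beside the LSECs. When Kupffer cells are lost or tissue is injured, blood monocytes enter, carrying Ly6C and the chemokine receptor CCR2, and mature into macrophages in place. In fatty and fibrotic liver and in adipose tissue, some of these take up lipid and cell debris and form the lipid-associated state, in which the lipid receptor TREM2, the glycoprotein GPNMB, the tetraspanin CD9 and lysosomal proteins are abundant. GATA4 is a transcription factor of LSECs, known for holding them in the sinusoidal rather than the continuous, capillary-like state.

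The deleted gene was read first. Gata4 averaged 6.53 ± 0.23 in Gata4-LSEC-KO livers and 6.73 ± 0.29 in control livers (SD, n = 10 and 11), a difference of -0.19 ± 0.10 (SE; adjusted p = 0.264, limma), so the deletion was not detectable in whole liver RNA. Clec4g, the gene whose promoter drives the recombinase, averaged 6.90 ± 0.56 in knockout livers and 7.78 ± 0.73 in control livers (difference -0.92 ± 0.23, adjusted p = 0.0176, limma). Over all genes, 834 (3.28%) were higher and 1030 (4.05%) were lower in the knockout at an adjusted p under 0.05, together 7.33% of all genes, and the median difference was -0.01. The livers labelled control replicate 3 and knockout replicate 6 stood apart in the member genes. Control replicate 3 had the highest control value of Cd52, Cd68, Itgax, Lgals3, Ms4a7 and Ly6c2, and knockout replicate 6 had the highest value of all livers for Cd52, Lgals3 and Ly6c2. List counts below that change by more than 1.5 times without either or both of these livers, or without any other single liver, are given both ways.

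In all, 4 of the 9 measured members were higher in Gata4-LSEC-KO livers: Cd52, Cd68, Cd9 and Gpnmb. None was lower, and Ly6c2, Ms4a7, Itgax, Lgals3 and Trem2 did not pass the test. Against these 4 of 9, the share of all genes called higher was 3.28%. The members and the lists below were chosen with earlier results of these data known. Setting their counts beside that share is therefore no independent test of a set. The fitted difference was positive for all 9 members, with a median of 0.65, and was positive for 45.1% of all genes. The knockout and control groups overlapped for all 9 members; over all genes, the knockout livers lay wholly above the controls for 0.0905% and wholly below them for 0.0393%. Fitted alone, the first run called no member, against 0.00787% of all genes higher and 0.00393% lower, and the second called 3 higher, Cd52, Cd9 and Gpnmb, against 2.17% of all genes higher and 2.89% lower. No member passed the genotype by run term, against 0.0315% of all genes. Leaving out both control replicate 3 and knockout replicate 6 kept the same 4 members higher and none lower: the differences were then 1.59 for Cd52, 1.21 for Cd68, 0.94 for Cd9 and 0.64 for Gpnmb.

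**Figure D1:**
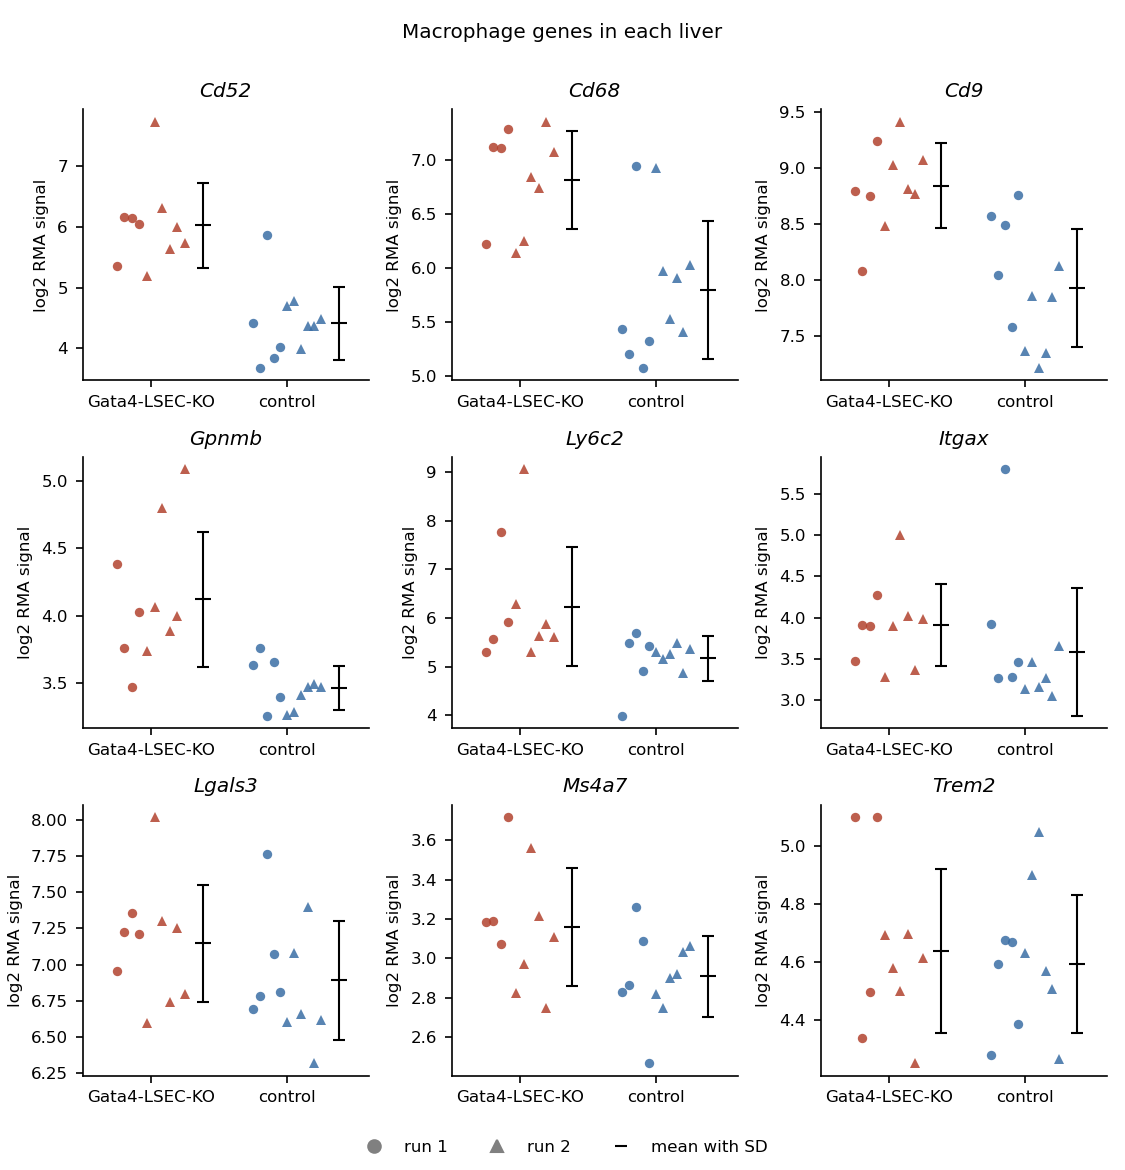
Each point is the log2 RMA value of 1 liver for 1 member gene, knockout livers on the left and controls on the right of each pair, with the run shown by the marker and the group mean with SD beside the points. Cd52, Cd68, Cd9 and Gpnmb were higher in Gata4-LSEC-KO livers by 1.62, 1.01, 0.93 and 0.65, while the points of Trem2 lay in the same range in both groups, 4.25 to 5.10 in knockout livers and 4.27 to 5.05 in control livers.

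Trem2 encodes a surface receptor for lipids and lipoproteins and is the defining receptor of the lipid-associated state. Its lowest, median and highest values were 4.25, 4.60 and 5.10 in Gata4-LSEC-KO livers and 4.27, 4.59 and 5.05 in control livers. The ranges nearly coincided, and only knockout replicates 1 and 4, both of the first run, lay above the highest control. The means were 4.64 ± 0.28 in knockout livers and 4.59 ± 0.24 in control livers (SD), a difference of 0.05 ± 0.11 (SE; adjusted p = 0.870, limma). The 95% interval of the difference, -0.19 to 0.28, leaves room for a fold of 0.88 to 1.21 in array signal. Whether this row follows the Trem2 of macrophages was not tested. Within the first run the difference was 0.24 and within the second it was -0.10, and the term for that change between runs did not pass (adjusted p = 0.639, limma).

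Gpnmb encodes a transmembrane glycoprotein of lysosomes and of the cell surface that macrophages induce under lysosomal load. Its lowest, median and highest values were 3.47, 4.01 and 5.08 in Gata4-LSEC-KO livers and 3.26, 3.47 and 3.76 in control livers. In all, 7 of the 10 knockout livers lay above every control, with replicates 10 (5.08) and 7 (4.80) the highest and replicate 3 (3.47) at the control median. The mean was 4.12 ± 0.50 in knockout livers and 3.47 ± 0.17 in control livers (SD), a fold of 1.57 (95% interval 1.26 to 1.95; log2 difference 0.65 ± 0.15 SE, adjusted p = 0.0136, limma). The difference was 0.37 in the first run and 0.86 in the second. The control mean of Gpnmb lay under the median of all values on the arrays, 3.75, where RMA values can be close to background, which makes a fold there uncertain.

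Cd9 encodes a tetraspanin of the plasma membrane that marks lipid-associated macrophages but is also carried by platelets, endothelium and other cells. The lowest, median and highest values were 8.08, 8.80 and 9.42 in Gata4-LSEC-KO livers and 7.21, 7.86 and 8.76 in control livers. Among the 10 knockout livers, 7 lay above the highest control, and the lowest knockout value belonged to replicate 2. The mean was 8.85 ± 0.38 in knockout livers and 7.93 ± 0.53 in control livers (SD), a fold of 1.91 (95% interval 1.46 to 2.50; log2 difference 0.93 ± 0.19 SE, adjusted p = 0.00554, limma). The control livers themselves differed between runs, with means of 8.29 in the first and 7.63 in the second. The knockout means were 8.72 in the first run and 8.93 in the second. The knockout difference was 0.43 in the first run and 1.30 in the second. That change of 0.87 ± 0.33 (SE) between runs had an unadjusted p of 0.0163 and an adjusted p of 0.353 (limma), and 10.2% of all genes had an unadjusted p under 0.05 for this term.

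Cd68 encodes a heavily glycosylated protein of the lysosomal and endosomal membrane and is used as a marker of all macrophages. Its lowest, median and highest values were 6.14, 6.96 and 7.35 in Gata4-LSEC-KO livers and 5.08, 5.53 and 6.95 in control livers. Of the 11 controls, 9 lay below the lowest knockout liver, and the other controls, replicates 3 (6.95) and 6 (6.92), lay near the knockout median. The mean was 6.81 ± 0.46 in knockout livers and 5.80 ± 0.64 in control livers (SD), a fold of 2.01 (95% interval 1.44 to 2.82; log2 difference 1.01 ± 0.23 SE, adjusted p = 0.0130, limma). The difference was 1.33 in the first run and 0.77 in the second, and neither run alone passed the test.

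Lgals3 encodes galectin-3, a sugar-binding lectin that macrophages secrete. Its lowest, median and highest values were 6.60, 7.22 and 8.02 in Gata4-LSEC-KO livers and 6.32, 6.79 and 7.77 in control livers. The groups overlapped over most of their range, and only knockout replicate 6 (8.02) exceeded the highest control. The difference was 0.26 ± 0.17 (SE; 95% interval -0.09 to 0.61, adjusted p = 0.386, limma), with 0.16 in the first run and 0.34 in the second.

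**Figure D2:**
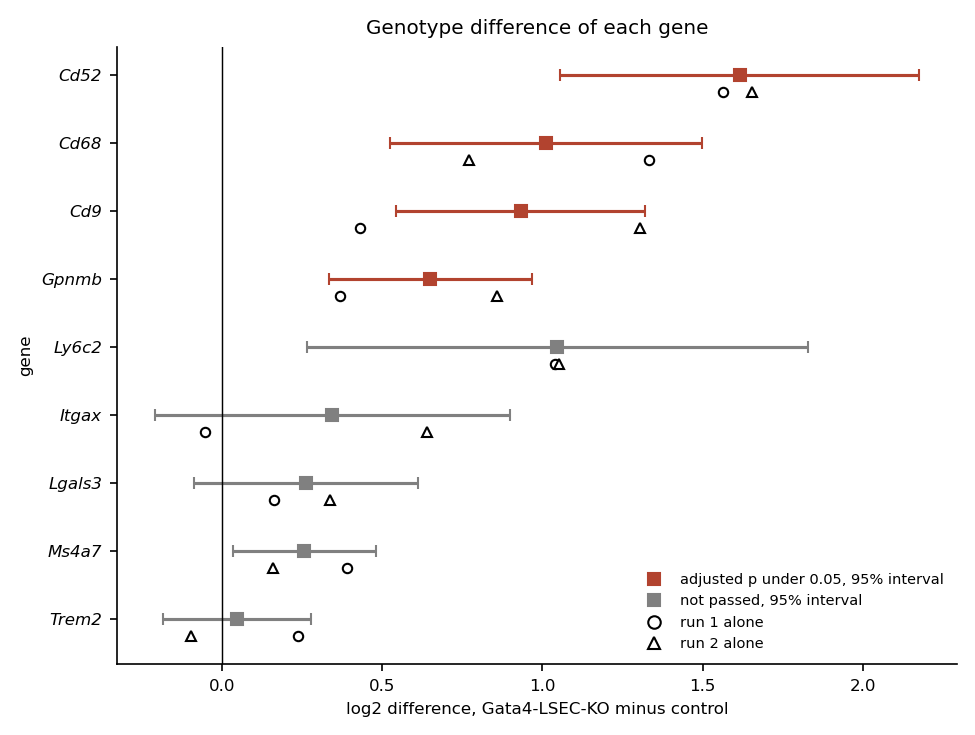
The knockout minus control difference on the log2 scale is drawn for each member with its 95% interval from all 21 livers, beside the difference within each run. The intervals of Cd52, Cd68, Cd9, Gpnmb, Ly6c2 and Ms4a7 lie above 0, but only the first 4 of these passed after adjustment over all genes; Trem2 runs from -0.19 to 0.28.

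Cd52 encodes a short lipid-anchored surface glycoprotein of monocytes, macrophages and lymphocytes. The 10 Gata4-LSEC-KO livers gave 5.36, 6.16, 6.14, 6.05, 5.20, 7.74, 6.31, 5.63, 6.00 and 5.74 from replicate 1 to 10, whereas the controls had a lowest, median and highest value of 3.68, 4.38 and 5.87. Of the 11 controls, 10 lay below every knockout liver; the exception was control replicate 3. The mean was 6.03 ± 0.70 in knockout livers and 4.41 ± 0.60 in control livers (SD), a fold of 3.06 (95% interval 2.08 to 4.52; log2 difference 1.62 ± 0.27 SE, adjusted p = 0.00163, limma). This was the largest difference among the 9 members, with 1.56 in the first run and 1.65 in the second.

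Ly6c2 encodes the Ly6C antigen that marks the inflammatory class of mouse blood monocytes and is also present on other leukocytes. The 10 Gata4-LSEC-KO livers gave 5.31, 5.57, 7.76, 5.91, 6.28, 9.05, 5.30, 5.64, 5.88 and 5.60 from replicate 1 to 10, whereas the controls had a lowest, median and highest value of 3.99, 5.31 and 5.69. Every knockout liver lay above the control mean of its run and 5 lay above the highest control, but replicates 6 (9.05) and 3 (7.76) were far above the others. The mean was 6.23 ± 1.22 in knockout livers and 5.18 ± 0.46 in control livers (SD), a log2 difference of 1.05 ± 0.38 (SE) that did not pass (adjusted p = 0.0945, limma). Its 95% interval was 0.26 to 1.83, and the difference was 1.04 in the first run and 1.05 in the second. Without knockout replicate 6 it was 0.74 (adjusted p = 0.0865, limma).

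Ms4a7 encodes a membrane-spanning protein of macrophages, found in liver on cells recruited from monocytes more than on resident ones. Its lowest, median and highest values were 2.75, 3.15 and 3.72 in Gata4-LSEC-KO livers and 2.47, 2.90 and 3.26 in control livers. Only 2 knockout livers lay above the highest control. The difference was 0.26 ± 0.11 (SE; 95% interval 0.03 to 0.48) and did not pass (adjusted p = 0.152, limma), with 0.39 in the first run and 0.16 in the second. Both groups lay under the array median, near the low end of the scale.

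Itgax encodes CD11c, the alpha chain of a beta-2 integrin of dendritic cells and of some macrophages. Its lowest, median and highest values were 3.28, 3.90 and 5.0 in Gata4-LSEC-KO livers and 3.05, 3.27 and 5.81 in control livers. The highest value of all livers belonged to control replicate 3, so no knockout liver lay above the controls. The difference was 0.34 ± 0.27 (SE; 95% interval -0.21 to 0.90, adjusted p = 0.495, limma), with -0.05 in the first run, which holds control replicate 3, and 0.64 in the second. Without control replicate 3 the difference was 0.55 (adjusted p = 0.0512, limma).

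Relatives of the members in the same families were read beside them. Lyz1, a lysozyme gene of the gut close in sequence to Lyz2, averaged 3.07 ± 0.23 in Gata4-LSEC-KO livers and 3.05 ± 0.21 in control livers (SD; difference 0.04 ± 0.09 SE, adjusted p = 0.864, limma). Ly6c1, the near-identical neighbour of Ly6c2, averaged 2.60 ± 0.15 in knockout livers and 2.53 ± 0.10 in control livers (SD; difference 0.07 ± 0.06 SE, adjusted p = 0.540, limma). The means of both rows lay under the array median of 3.75, and those of Ly6c1 under the lower quartile of 2.98. With values so low, neither row shows whether the member rows are specific or whether Lyz1 and Ly6c1 changed. Of the 6 measured Lyz and Ly6c relatives, 1 was higher, Ly6e, a broadly expressed surface protein gene induced by interferon (0.82 ± 0.14 SE, adjusted p = 0.00149, limma), with 8 of 10 knockout livers above the highest control, and none was lower; without knockout replicate 1 the count was 2. Probes of such close copies can cross-hybridise, so the Ly6c2 values are uncertain between the copies. Of 14 other Ms4a genes, 2 were higher, Ms4a6b (1.03 ± 0.24, SE) and Ms4a6c (1.19 ± 0.32), and none was lower; without control replicate 3 the count was 5. Control means lay under the array median for 13 of these 14 genes. The Ms4a6c call was lost without knockout replicate 3 or control replicate 9 (adjusted p up to 0.0520, limma). Of 9 tetraspanins and lysosomal relatives, 2 were higher and none was lower, Cd151 (0.45 ± 0.07 SE, adjusted p = 0.00149, limma) and the leukocyte tetraspanin Cd53 (1.13 ± 0.30, adjusted p = 0.0283). The Cd53 call was lost without any 1 of control replicates 7, 8 and 9 and knockout replicate 10 (adjusted p up to 0.0561, limma). Of 5 beta-2 integrins, Itgax included, Itgal (0.70 ± 0.18) and the shared beta chain Itgb2 (0.98 ± 0.27) were higher; with both outlying livers left out the count was 3. The Itgb2 call was lost without any 1 of control replicates 4, 7, 8 and 9 and knockout replicates 3, 9 and 10 (adjusted p up to 0.0621, limma). None of 7 galectins passed; 1 was called higher without any 1 of control replicates 3, 6 and 11 and knockout replicates 7 and 8, and 1 was called lower without any 1 of control replicates 1, 4 and 11 and knockout replicate 5.

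To show the sequence next to the genes that differ in outcome, the 250 bases before the annotated start of Cd68, Cd9, Gpnmb and Trem2 are printed below, from RefSeq on GRCm38.p6. In all, 9 of the members, Lyz2 included, had at least 1 promoter in that table, in 11 windows; Cd52 was the member without. The windows lie at chr11:69666171-69666420 on the minus strand (Cd68), chr6:125494761-125495010 on the minus strand (Cd9), chr6:49036268-49036517 on the plus strand (Gpnmb) and chr17:48346151-48346400 on the plus strand (Trem2). Each is written 5′ to 3′ along its gene, and capitals mark matches to the motifs described after them.
Cd68: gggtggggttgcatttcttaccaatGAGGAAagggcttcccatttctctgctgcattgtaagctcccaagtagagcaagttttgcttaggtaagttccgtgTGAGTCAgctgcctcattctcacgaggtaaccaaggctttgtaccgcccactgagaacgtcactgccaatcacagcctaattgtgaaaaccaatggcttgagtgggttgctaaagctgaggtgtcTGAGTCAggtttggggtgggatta
Cd9: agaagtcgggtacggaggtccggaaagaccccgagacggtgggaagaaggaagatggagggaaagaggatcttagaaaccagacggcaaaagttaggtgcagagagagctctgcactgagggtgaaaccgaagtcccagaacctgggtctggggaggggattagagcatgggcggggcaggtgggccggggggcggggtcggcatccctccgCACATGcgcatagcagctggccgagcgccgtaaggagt
Gpnmb: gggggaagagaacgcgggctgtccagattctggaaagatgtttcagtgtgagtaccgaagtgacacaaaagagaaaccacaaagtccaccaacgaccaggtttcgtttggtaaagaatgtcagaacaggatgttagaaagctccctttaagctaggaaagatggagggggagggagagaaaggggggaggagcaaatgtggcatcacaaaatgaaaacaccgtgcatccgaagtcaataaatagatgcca
Trem2: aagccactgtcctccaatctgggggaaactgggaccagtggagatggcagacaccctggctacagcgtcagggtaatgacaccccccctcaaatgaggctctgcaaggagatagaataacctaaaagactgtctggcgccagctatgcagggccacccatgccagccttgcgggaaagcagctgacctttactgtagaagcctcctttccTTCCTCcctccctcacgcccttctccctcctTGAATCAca

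Motifs were searched on both strands in windows of 300 bases that reach 50 bases past the start. PU.1, the factor that specifies myeloid cells, was searched as GAGGAA and stood in 5 of the 11 member windows (Cd68, Trem2, Ms4a7 and both of Ly6c2) and in 28.3% of all 32851 promoters. The windows of Ly6c2 overlap and hold the same PU.1 matches, so they do not count as separate. AP-1, a factor of activated cells, was searched as TGANTCA and stood in 5 member windows (Cd68, Trem2, Gpnmb, Itgax and Ms4a7) and in 7.81% of all promoters. In Cd68, PU.1 letters began 225 bases before the start and AP-1 letters 149 and 24 bases before it. In Trem2, PU.1 letters on the minus strand began 40 bases before the start and AP-1 letters 9 bases before it. The Gpnmb match to AP-1 began 8 bases after the start, outside the printed bases. The M-box CATGTG of MITF, a transcription factor of lysosomal and pigment-cell genes, stood in Cd9 (minus strand, 38 bases before the start) and in 1 window of Ms4a7, and in 14.2% of all promoters. GATA letters, AGATAA, stood only in Itgax among the member windows and in 11.2% of all promoters. The E-box CACGTG stood in no member window and in 7.15% of all promoters. Trem2, which did not pass the test, and Cd68, which did, thus held the same pair of motifs; a match of letters is a description and no evidence of binding.

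The wider set of lipid-associated macrophage genes was read next. Of 22 such genes other than the members, 21 were measured, 8 were higher, none was lower, and the median difference was 0.27. Lpl, which encodes the lipase that frees fatty acids from lipoproteins, had a lowest, median and highest value of 7.06, 9.55 and 10.51 in Gata4-LSEC-KO livers and 4.61, 5.84 and 7.56 in control livers. Of the knockout livers, 9 lay above the highest control, and the fold was 9.72 (log2 difference 3.28 ± 0.42 SE, adjusted p = 1.94e-04, limma). Clec7a, the beta-glucan receptor Dectin-1, averaged 5.62 ± 0.46 in knockout livers and 4.12 ± 0.45 in control livers (SD; difference 1.50 ± 0.19 SE, adjusted p = 1.94e-04, limma). Anxa5, which encodes an annexin that binds exposed phosphatidylserine, was the gene of this list without overlap, with 9.21 to 10.55 in knockout livers and 8.53 to 9.20 in control livers (difference 0.91 ± 0.14 SE, adjusted p = 9.04e-04, limma). The other genes called higher, named after their values were seen, were Fabp4 (1.84), Ctss (1.06), Axl (0.99), Lgmn (0.60) and Ctsb (0.29), which encode a fatty acid carrier, a cysteine protease of lysosomes, a receptor for dying cells and a pair of further lysosomal proteases. Also named after their values were seen, Apoe (-0.09), Plin2 (0.04), Cd36 (-0.25) and Mmp12 (0.87, adjusted p = 0.0866, limma) did not pass; Mmp12 passed without knockout replicate 2 or 6 (adjusted p down to 0.0421). Several of these genes are also made by endothelium, adipocytes or hepatocytes, and whole liver RNA does not show which cells carried them.

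Genes of the TREM2 signalling pathway were compared in the same way. Of 15 measured genes, 4 were higher and none was lower, with a median difference of 0.24; the count was 7 without control replicate 3 and 2 without knockout replicate 3, control replicate 8 or control replicate 9. Tyrobp, the adaptor through which TREM2 signals, averaged 5.44 ± 0.39 in Gata4-LSEC-KO livers and 4.77 ± 0.44 in control livers (SD; difference 0.67 ± 0.17 SE, adjusted p = 0.0237, limma). Tyrobp also serves other receptors of myeloid and NK cells. Inpp5d, which encodes the phosphatase SHIP1, differed by 0.68 ± 0.18 (SE; adjusted p = 0.0263, limma), a call that was lost without knockout replicate 3, control replicate 8 or control replicate 9 (adjusted p up to 0.0528). Pik3cd, a kinase subunit of leukocytes, differed by 0.32 ± 0.08 (SE; adjusted p = 0.0237, limma). Syk, the kinase that binds the adaptor and a gene named afterwards, differed by 0.13 and did not pass (adjusted p = 0.614, limma). Thus the receptor gene did not pass while its adaptor gene did; the difference between the genes was not tested.

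Monocyte genes other than the members were higher in part. Of 20 listed genes, 18 were measured, 4 were higher and none was lower, with a median difference of 0.42; with both outlying livers left out the count was 8, and it was 2 without any 1 of 13 livers (control replicates 2, 4, 5 and 7 to 11 and knockout replicates 1, 3, 4, 7 and 9). Ccr2, the receptor through which monocytes leave the marrow and enter tissue, averaged 4.71 ± 0.74 in Gata4-LSEC-KO livers and 3.52 ± 0.34 in control livers (SD; difference 1.17 ± 0.23 SE, adjusted p = 0.00541, limma), and 8 knockout livers lay above the highest control. Fcgr1, the high-affinity IgG receptor of monocytes and macrophages, differed by 0.74 ± 0.18 (SE; adjusted p = 0.0190, limma). Ace, the angiotensin-converting enzyme found on nonclassical monocytes and endothelium, differed by 0.51 ± 0.15 (SE; adjusted p = 0.0463, limma), and that call was lost when any 1 of 15 livers was left out, all but control replicates 1, 3 and 6 and knockout replicates 2, 5 and 6 (adjusted p up to 0.0881). Chil3, a chitinase-like protein of monocytes, neutrophils and alternatively activated macrophages, was named after its values were seen as the remaining gene called higher (1.95 ± 0.59 SE, adjusted p = 0.0465, limma). That call held only without control replicate 1 or without knockout replicate 2, 6, 8 or 10, and was lost without any 1 of the other 16 livers (adjusted p up to 0.0903, limma). Cx3cr1, the fractalkine receptor of nonclassical monocytes, also named after its values were seen, differed by 0.03 ± 0.18 (SE) and did not pass (adjusted p = 0.944, limma).

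**Figure D3:**
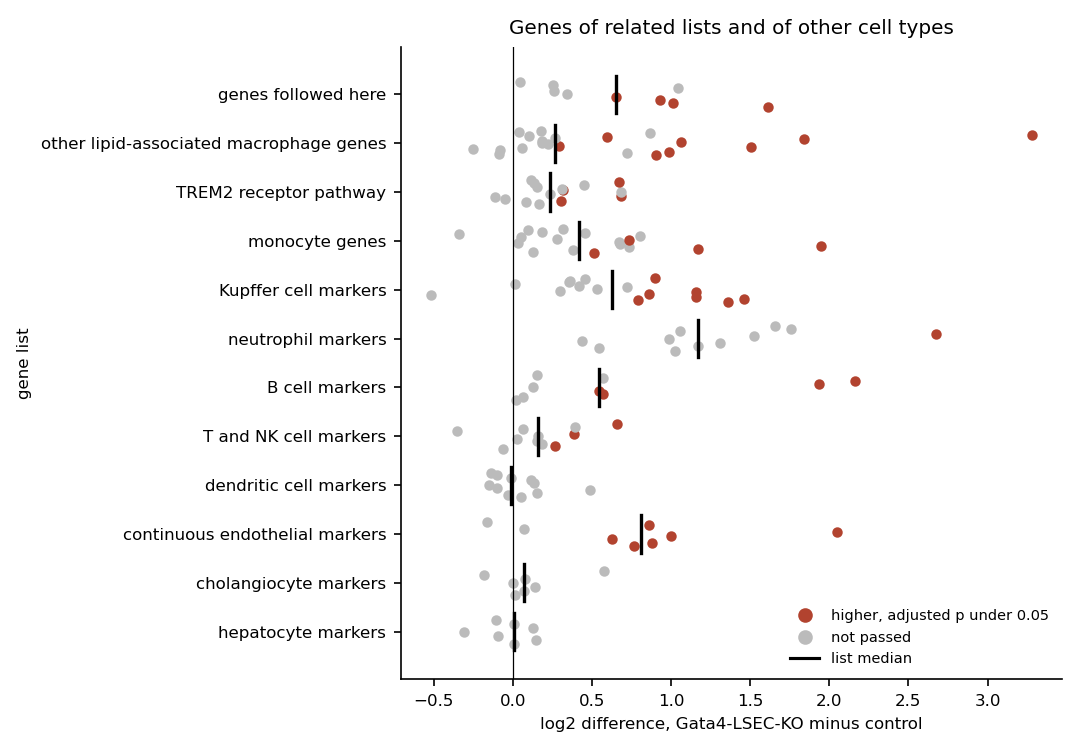
Differences of all measured genes of each list, knockout minus control on the log2 scale, are drawn as points with the list median as a black line and the genes past the threshold in red. Continuous endothelial and Kupffer cell lists have medians of 0.81 and 0.63, the dendritic cell and hepatocyte lists lie at -0.01 and 0.01, and no listed gene was called lower with all 21 livers.

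Markers of several other cell types were higher in the same livers. In all, 7 of 16 Kupffer cell markers were higher and none was lower (median 0.63), among them the complement genes C1qb (1.46 ± 0.24 SE, adjusted p = 0.00147, limma) and C1qa (0.79 ± 0.16, adjusted p = 0.00493) and the lectin gene Cd207 (0.86 ± 0.16, adjusted p = 0.00394). Clec4f, the lectin that defines Kupffer cells in mouse and likewise named afterwards, differed by 0.30 ± 0.21 (SE) and did not pass (adjusted p = 0.462, limma). The differences of the 16 Kupffer cell markers ran from -0.52 to 1.46, and 15 were positive. Whether these genes mark Kupffer cells alone was not tested. The log2 of the summed Kupffer signal ran from 11.40 to 12.46 in Gata4-LSEC-KO livers and from 10.90 to 12.00 in control livers. Likewise, 6 of 8 continuous endothelial markers were higher (median 0.81), among them Esm1 (2.05 ± 0.25 SE, adjusted p = 1.71e-04, limma), and their summed signal ran from 8.67 to 9.41 in knockout livers and from 7.72 to 8.33 in control livers, without overlap. Of 9 B cell markers, 4 were higher (median 0.54), led by the antibody joining chain gene Jchain (2.16 ± 0.40 SE, adjusted p = 0.00348, limma), with summed signals of 8.53 to 11.07 in knockout livers and 7.25 to 9.38 in control livers. In addition, 3 of 11 T and NK cell markers were higher (median 0.16), with summed signals of 7.09 to 7.66 in knockout livers and 7.19 to 7.43 in control livers. The count was 1 without control replicate 4 or knockout replicate 3 or 4, since the calls of Cd3e, a CD3 chain of the T cell receptor complex (adjusted p = 0.0304, limma), and Trac (adjusted p = 0.0388) were then lost. The Cd3e call was also lost without control replicate 2 (adjusted p up to 0.0580, limma). The Trac call was also lost without any 1 of control replicates 5, 7, 8 and 9 and knockout replicates 6, 7, 9 and 10 (adjusted p up to 0.0728, limma). None of 11 dendritic cell markers passed (median -0.01), though Zbtb46 was called lower without control replicate 11 (adjusted p = 0.0270, limma), and 8 of them had a control mean under the array median. None of 7 cholangiocyte markers passed (median 0.07); Sox9 (0.57 ± 0.18 SE, adjusted p = 0.0601, limma) was called higher without any 1 of control replicates 1, 4 and 6 and knockout replicates 5 and 6. Control means also lay under the array median for 7 of the 9 B cell, 9 of the 11 T and NK cell and 5 of the 7 cholangiocyte markers. The same held for 1 of the 16 Kupffer cell and 2 of the 8 continuous endothelial markers. None of 7 hepatocyte markers passed (median 0.01), with summed signals of 15.73 to 15.94 in knockout livers and 15.80 to 15.96 in control livers. Of these, Cyp2e1, a drug-metabolising enzyme gene of hepatocytes, had a difference of -0.31 ± 0.10 (SE; adjusted p = 0.0506, limma) and was called lower without any 1 of control replicates 1 and 8 and knockout replicates 2 and 5, under the filter on low values and with the trended robust prior (adjusted p down to 0.0163). The part of each of these cell types in the member differences was not tested.

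Neutrophil markers were highest in the livers with the highest Ly6c2. Of 11 such markers, Ngp, a granule protein gene, was the only one to pass (2.68 ± 0.58 SE, adjusted p = 0.00910, limma), but the list median was 1.17, and all 11 had control means under the array median. With both outlying livers left out 3 markers passed, and 2, 3 and 4 passed without knockout replicate 1, 2 and 6 alone. None of the 11, Ngp included, passed in either run fitted alone. The mean of the 11 markers ran from 3.29 to 8.40 in Gata4-LSEC-KO livers and from 3.03 to 3.23 in control livers. Its highest values were 8.40 in knockout replicate 6 and 5.96 in knockout replicate 3, the livers with the highest Ly6c2. After the effects of genotype and run were taken out, the named genes most like Ly6c2 over the 21 livers were Ngp (Pearson r 0.927), S100a9 (0.916), Ltf (0.913), Igkv4-72 (0.912) and Mmp8 (0.909), and all but Igkv4-72 were neutrophil markers of the list. These likenesses come from the same arrays, with knockout replicates 6 and 3 at the extreme, and carry no test; the part of neutrophils in the Ly6c2 values was not tested. For Trem2 the most alike genes were Etl4 (0.797), Gzmd (0.794), Mir466h (0.782), Psd3 (0.781) and Slc25a1 (0.759), none of them on any list of macrophage genes.

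**Figure D4:**
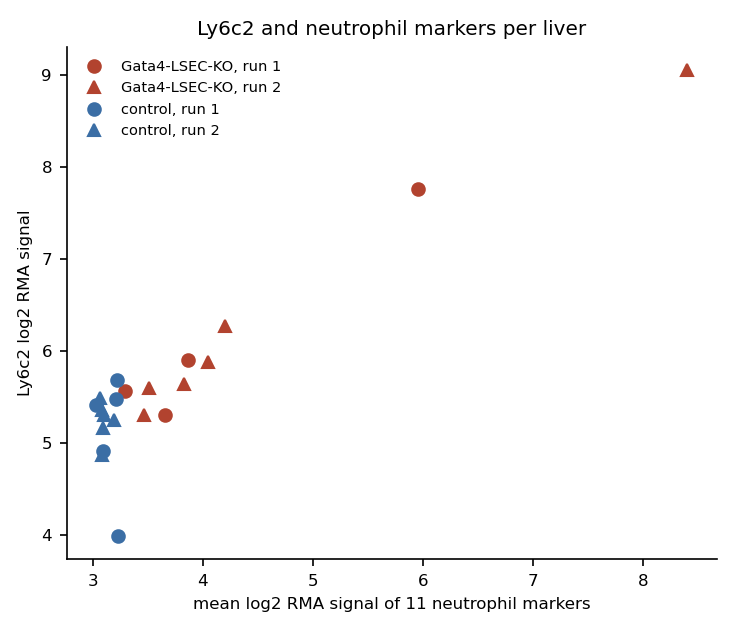
Each point is 1 liver, with the mean log2 value of 11 neutrophil markers on the horizontal axis and the log2 value of Ly6c2 on the vertical axis. Knockout replicates 6 and 3 lie far to the upper right, at Ly6c2 values of 9.05 and 7.76, while all 11 controls lie between 3.03 and 3.23 on the horizontal axis.

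The members were last compared within each liver, each value taken relative to the mean of the control livers in its run. The controls spread around that mean by construction, since each is part of it. The counts and medians thus restate the differences above liver by liver and are no further comparison of the groups. Each of the 10 Gata4-LSEC-KO livers had 6 to 9 of the 9 members above the control mean, and the median over the members ran from 0.18 to 0.88. Among the controls, control replicate 3 had 8 members above that mean, control replicate 11 had 7, control replicate 7 had 6, and the other 8 had 2 to 4. The median over the members was 0.59 in control replicate 3 and -0.24 to 0.17 in the other 10 controls. By the count, these 3 controls lay in the range of the knockout livers, and by the median control replicate 3 alone did.

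**Figure D5:**
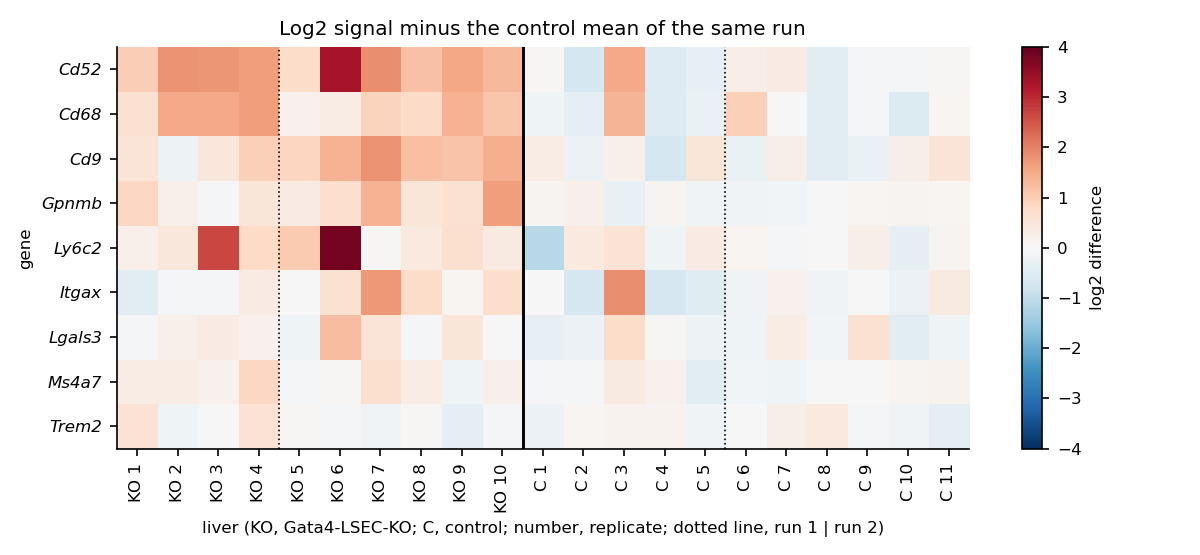
Each cell gives the log2 value of a member in 1 liver relative to the control livers of its run, with knockout livers left of controls and a dotted line between runs. Cd52 was positive in all 10 knockout livers, Trem2 in 4 of them, and control replicate 3 carried positive values for 8 of the 9 members.

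Few pairs of members passed a test of correlation within a group. Correlations over the livers of 1 group, on values centred on the mean of each run, were computed for 36 pairs in each of the groups, 72 in all, with exact permutation within runs, two-sided, and Benjamini-Hochberg adjustment over the 72. The median Pearson r was 0.19 in knockout livers and 0.19 in control livers, and 26 of 36 pairs were positive in knockout livers and 25 of 36 in control livers. In the 10 knockout livers Cd52 and Lgals3 correlated with r = 0.969 (exact permutation p = 1.74e-04, adjusted 0.0125) and Spearman rho = 0.855 (adjusted exact permutation p = 0.0229). Without the 2 livers farthest from the median of Cd52, r was 0.869; knockout replicate 6 was the highest for both genes. Ms4a7 and Itgax had r = 0.881 (adjusted exact permutation p = 0.0646) and rho = 0.952 (adjusted exact permutation p = 0.0229) in the knockout livers. That r was 0.715 without the 2 livers farthest from the median of Ms4a7, a gene under the array median in both groups. In the 11 controls Cd52 and Cd68 had r = 0.865 (adjusted exact permutation p = 0.0994) and rho = 0.818 (adjusted exact permutation p = 0.0444). Leaving out the 2 livers farthest from the median of Cd52 gave r = 0.698, and control replicate 3 was the highest control for both genes. No other pair passed by either measure. With 10 or 11 livers, a pair that did not pass is not shown to vary apart. Cd52 and Itgax in the controls, for example, had r = 0.940 (adjusted exact permutation p = 0.155). Without the 2 livers farthest from the median of Cd52, that r was 0.691. Trem2 and Gpnmb, both used to define the lipid-associated state, had r = 0.32 in knockout livers (exact permutation p = 0.318, adjusted 0.735) and r = -0.25 in control livers (exact permutation p = 0.415, adjusted 0.741).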

How the data were processed

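Arrays of 21 whole livers were analysed, 1 per mouse; the labels call them biological replicates. The deposited values were log2 expression made by the authors with RMA, which corrects background, normalises by quantiles and summarises probes, per the submitters' processing notes. The labels state no RMA version, array type or genome build (not given in the sources used here), scanner files were not used, and sorted values were the same on all arrays to within 0.0019. Precision is limited by the number of arrays. Symbols came from the platform annotation: 24705 rows had 1 symbol, 723 none and 0 several; an unnamed row was not analysed here by gene. The members and lists were chosen with earlier results of these data known.

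Differences are Gata4-LSEC-KO minus control from limma 3.58.1 in R 4.3.3 (lmFit and eBayes, genotype and run terms, all 21 arrays), with Benjamini-Hochberg adjustment over all 25428 rows and a threshold of 0.05; a second fit held a genotype by run term. No filter was applied. Correlations, the exact permutation within runs and the motif search used numpy 2.4.6 and scipy 1.17.1. Alternatives were no run term, each run alone, a replicate block, a second quantile normalization, median centring, a filter on low values, a trended robust prior, array weights, the 2 least typical arrays left out and each liver left out; 1 more, without control replicate 3 and knockout replicate 6, was added after seeing the data. Genes named from the lists were up to 3 per list with the lowest adjusted p, or the 1 with the lowest p where none passed, plus Gata4, Clec4g, the members, Lyz1, Ly6c1 and the 5 genes most like Trem2 and Ly6c2; the text says where others were named after their values were seen. On simulated data with this design, 77% of 100 genes changed by 0.5 and 96% of 100 genes changed by 1 on the log2 scale were recovered. These genes were drawn at random and given independent normal noise, without outlying livers. The SE of the difference had a median of 0.08 over all genes but ran from 0.11 (Ms4a7) to 0.38 (Ly6c2) among the members. The shares recovered therefore do not apply to the members.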

Additional observations from a re-analysis of the deposited data

Results flagged for a closer look

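Among the 10 Gata4-LSEC-KO livers, 6 of the 55 named genes had a highest or lowest liver separated from the nearest other by more than Dixon's 95% critical value of 0.466 of the range. Chance alone flags about 1 in 20 independent groups, and the 11 controls were not tested this way. That rate gives no expected count for the 55 genes, which share the same livers. Etl4 and Igkv4-72 were moreover named for their likeness to Trem2 and Ly6c2 over these livers. Knockout replicate 6 was the highest liver for Cd52 at 7.74, with 6.31 next, and for Lgals3 at 8.02, with 7.36 next. It was also the highest for Itgb2 at 8.0, with 6.84 next, and for the antibody gene Igkv4-72 at 7.07, with 4.87 next. Knockout replicate 4 was the highest for Etl4 at 5.85, with 5.40 next. Knockout replicate 5 was the lowest for Cd3e at 3.49, with 3.90 next.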

How the results depend on the processing

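The count of members called higher was 4 and the count called lower was 0 under every alternative run, including each of the 21 leave-one-out fits, except that higher members numbered 0 in run 1 only and 3 in run 2 only. With 9 livers in run 1, 2 genes were called higher and 1 lower over all genes; in run 2 only, 552 were higher. Leaving out 1 liver moved the count of higher genes between 565 and 981 and of lower genes between 629 and 1471, against 834 and 1030 with all livers; the count of lower genes was 629 without control replicate 8 and 661 without control replicate 9. No member passed the genotype by run term in any fit. The replicate numbers do not pair the livers: the same-numbered livers correlated at -0.09 to 0.18, and 1 of 10 knockout livers correlated best with its own number. With the replicate block (20 arrays, control replicate 11 dropped), 4 members were higher, 642 genes were higher and 602 lower, and among the named genes the calls of Ace, Trac, Clec4g, Tyrobp, Pik3cd and Itgb2 were lost (adjusted p of 0.143, 0.10, 0.0757, 0.0701, 0.0588 and 0.0571, limma). Without a run term the Clec4g call was lost too (adjusted p = 0.0529, limma). With array weights the calls of Ace, Cd3e and Mir466h were lost, and without the 2 least typical arrays those of Ace and Mir466h. Values that changed sign were all of genes that did not pass: Trem2 was -0.10 in run 2 only and -0.022 with the replicate block, and ran from -0.012 to 0.10 over the leave-one-out fits (its negative values came without knockout replicate 1 or 4). Itgax was -0.054 in run 1 only, Lyz1 -0.032 in run 2 only, and Gzmd 0.039 and Slc25a1 0.052 in run 1 only. The causes were not tested. Gpnmb, Ms4a7 and Itgax had control means under the array median, and Itgax and Ms4a7 gave no value under the filter on low values.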
